A study of Mus musculus with 14 samples.

Results

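The 10 genes described here belong to bone morphogenetic protein (BMP) signalling and were read across 4 vectors and 2 days in mouse fibroblasts. They are the ligand genes Bmp2 and Bmp4, the secreted antagonist Grem1, the pseudoreceptor gene Bambi, the inhibitory Smad genes Smad6 and Smad7, and the target genes Id1, Id2, Id3 and Id4. They were taken from a list of gene names, chosen with earlier results of these data known. Each was read from the probe set that the platform annotation pairs with its symbol. All 10 were measured, each by 1 probe set, among 19935 genes. No measured value entered the choice of probe set beyond the level averaged over the 14 arrays.

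The cells were ICR mouse embryonic fibroblasts grown in embryonic stem cell medium and freed of feeder cells before lysis. SKO+HDAC7 cells received SKO and HDAC7, SKO+MEF2C cells received SKO and MEF2C, SKO+Flag cells received SKO and an empty Flag vector, and GFP cells received GFP alone. Each was lysed at day 6 or day 10. The 3 SKO groups had 2 arrays at each day and GFP had 1. SKO is not spelled out in the labels and commonly stands for Sox2, Klf4 and Oct4, the reprogramming factors that turn fibroblasts towards a pluripotent state. HDAC7 belongs to the class IIa histone deacetylases, which bind and repress transcription factors of the MEF2 family such as MEF2C. The labels give the 2 arrays of a group the experiment numbers 1 and 2. Whether an experiment was a separate culture is not stated, so the p-values describe the spread between arrays, which may be technical. The cultures were transduced as a whole, and in such bulk RNA fewer cells of a type and less RNA per cell cannot be told apart.

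BMP ligands bind paired type I and type II receptors, which phosphorylate Smad1, Smad5 and Smad9. These enter the nucleus with Smad4 and switch on a small set of direct targets, among them the Id genes, whose products bind basic helix-loop-helix factors and keep them off DNA. Smad6, Smad7 and Bambi are induced by the same pathway and damp it, and Gremlin 1, the product of Grem1, holds BMP2 and BMP4 outside the cell. BMP signals are known to favour the early epithelial turn of fibroblasts under reprogramming factors.

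Values are deposited log2 expression values, and no detection calls were used. Hdac7 lay between 11.2 and 11.4 on SKO+HDAC7 arrays, against 6.88 to 7.01 on SKO+Flag arrays, and Mef2c lay between 9.48 and 9.93 on SKO+MEF2C arrays, against 6.43 to 6.81 on SKO+Flag arrays. Pou5f1, which encodes Oct4, was higher in SKO+Flag than in GFP by 6.75. Sox2 and Klf4, looked up after their values were seen, differed there by 0.16 and 0.17 (limma, Benjamini-Hochberg adjusted p = 0.082 and 0.081). Of 12 fibroblast markers, 11 lay above the array's median over the 19935 genes on all 14 arrays. Of the markers of other cells, 4 of 6 endothelial, 4 of 5 macrophage and blood, 3 of 4 keratinocyte, 2 of 3 neural and 1 of 4 cartilage and bone genes lay below it on all arrays. Among 5 pluripotency markers, 4 lay below it on all arrays and Pou5f1 was the exception.

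RefSeq promoter windows (GRCm38.p6) were matched by symbol for 6 of the 10 genes: Id2, Id3, Id4, Smad6, Bmp4 and Grem1. Shown here are the 250 bases before the start of Id2 and Id3, the Id genes lower with HDAC7, and of Smad6, the inhibitory Smad higher with MEF2C. Capitals mark the GC-rich element GGCGCC, which BMP Smads are known to bind, and GTCT or its complement AGAC, the core of the Smad binding element; both strands were read. The windows are chr12:25096093-25096342 on the minus strand for Id2, chr4:136143572-136143821 on the plus strand for Id3 and chr9:64022060-64022309 on the minus strand for Smad6, each given 5′ to 3′ along its gene.
Id2: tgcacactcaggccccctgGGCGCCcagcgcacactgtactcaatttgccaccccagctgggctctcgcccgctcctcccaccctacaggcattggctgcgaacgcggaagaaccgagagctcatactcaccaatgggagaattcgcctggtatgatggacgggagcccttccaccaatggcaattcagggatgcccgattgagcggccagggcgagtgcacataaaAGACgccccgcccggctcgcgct
Id3: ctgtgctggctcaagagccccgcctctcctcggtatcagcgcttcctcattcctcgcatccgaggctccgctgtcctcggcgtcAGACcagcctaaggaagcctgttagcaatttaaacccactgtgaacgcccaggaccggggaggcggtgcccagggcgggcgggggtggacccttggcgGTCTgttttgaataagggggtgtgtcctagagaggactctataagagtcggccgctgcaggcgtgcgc
Smad6: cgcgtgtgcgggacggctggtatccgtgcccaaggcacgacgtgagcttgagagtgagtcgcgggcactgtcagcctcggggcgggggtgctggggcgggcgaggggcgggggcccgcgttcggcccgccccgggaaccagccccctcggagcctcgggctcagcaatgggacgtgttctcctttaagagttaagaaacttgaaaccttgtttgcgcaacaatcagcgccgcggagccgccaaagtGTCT

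The Id2 window held 1 GGCGCC and 1 AGAC, the Id3 window 2 of the short Smad cores and no GGCGCC, and the Smad6 window 1 GTCT in its last 4 bases. Of the other windows, Id4 held 1 GGCGCC and no short core, Grem1 held 1 GGCGCC and 4 short cores, and Bmp4 held no GGCGCC and 1 short core. GGCGCC occurs in 9.59% of the 32851 promoter windows, and GTCT or AGAC in 82.9%. The joined palindrome GTCTAGAC (0.167% of windows), which contains both cores, and the MEF2 consensus (2.92%) were found in none of the 6. A match is a description of letters and was tied to no binding data.

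**Figure D1:**
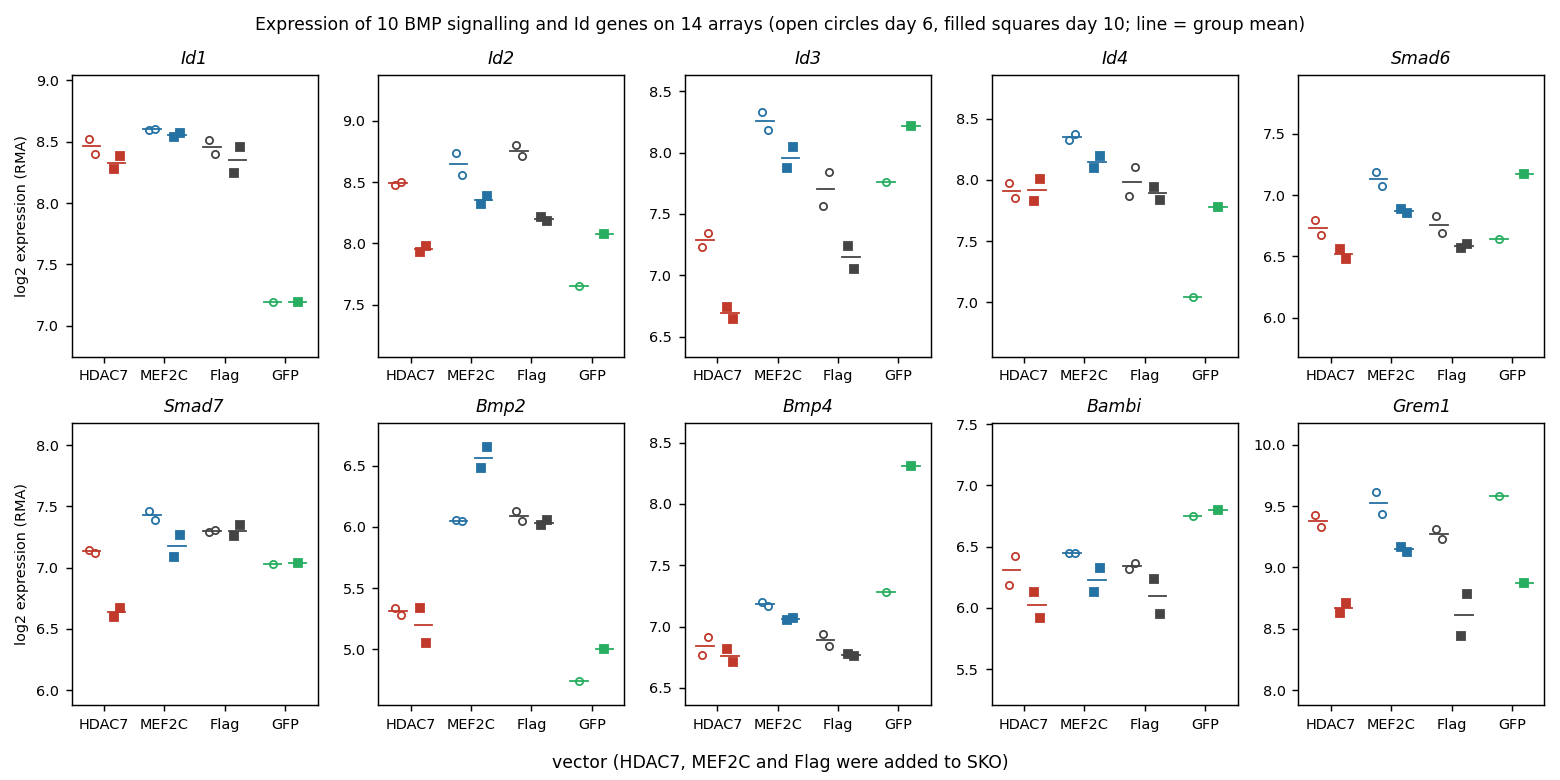
Deposited log2 expression of the 10 genes on all 14 arrays, 1 panel a gene, with the vector on the horizontal axis, open circles for day 6, filled squares for day 10 and a line for each group mean. The vertical axes do not start at 0 and differ in position, not in span. Within each day, Bmp2 and Id3 are lowest on SKO+HDAC7 arrays among the SKO groups, and Id1 is near 7.19 on both GFP arrays, below every SKO array.

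With HDAC7 added to SKO, 4 of the 10 genes were lower than in SKO+Flag and none was higher, averaged over the days. These were Bmp2, Id3, Smad7 and Id2, each lower on all 4 SKO+HDAC7 arrays than on both SKO+Flag arrays of the same day. The share of all genes with such a separation was not counted. Over all 19935 genes, 6.06% were called lower and 4.83% higher (limma, Benjamini-Hochberg adjusted p under 0.05). The median difference of the 10 genes was -0.05, against 0.02 for all genes. Among fibroblast markers 4 of 12 were higher and 7 lower with HDAC7, with a mean level of 9.19 to 9.47 on SKO+HDAC7 arrays and 9.31 to 9.47 on SKO+Flag arrays. Single endothelial (Tek), macrophage (Cd68), keratinocyte (Krt14) and neural (Tubb3) markers were higher. Of the cartilage and bone markers, Col2a1 was lower, at -0.39. The part of any of these in the 4 differences was not tested.

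With MEF2C added to SKO, 6 of the 10 genes were higher than in SKO+Flag and none was lower: Id3, Grem1, Smad6, Id4, Bmp4 and Bmp2. Over all genes 5.49% were called higher and 4.82% lower. The median difference of the 10 genes was 0.27, against 0.01 for all genes. Bmp2 had the highest adjusted p of the 6. Among cartilage and bone markers, 2 of 4 were higher with MEF2C (Acan and Sp7), with a mean level of 6.43 to 6.65 on SKO+MEF2C arrays and 6.06 to 6.36 on SKO+Flag arrays, and 3 of 12 fibroblast markers were higher. Of the markers of other cells, Kdr (endothelial) was higher, by 0.30, and Tek (endothelial) and Krt14 (keratinocyte) were lower, at -0.67 and -0.33. Kdr and Sp7 lay below the array's median on all arrays of both groups, and Acan on all SKO+Flag arrays. The part of these markers was not tested. Both comparisons share the SKO+Flag arrays, so their results are not independent of each other. After centring every array on its median, the all-gene split was 698 higher and 1520 lower for HDAC7, in place of 963 and 1208, and 863 higher and 1142 lower for MEF2C, in place of 1094 and 960.

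Set directly against each other, SKO+HDAC7 was lower than SKO+MEF2C in 9 of the 10 genes, with 11.8% of all genes called lower and 10.3% called higher. The exception was Bambi. In these 9 genes both SKO+HDAC7 arrays of a day lay below both SKO+MEF2C arrays of that day. How many of all genes separate in this way was not counted. The median difference over the 10 genes was -0.33, against 0.01 over all genes. Fibroblast markers differed too: 4 of 12 were higher and 7 lower in SKO+HDAC7 than in SKO+MEF2C, and their mean level was 9.19 to 9.47 on SKO+HDAC7 arrays and 9.50 to 9.62 on SKO+MEF2C arrays. Of the cartilage and bone markers, 3 of 4 were lower (Acan at -0.90, Sp7 at -0.44 and Col2a1 at -0.42), with a mean level of 5.85 to 6.21 on SKO+HDAC7 arrays and 6.43 to 6.65 on SKO+MEF2C arrays. Sp7 lay below the array's median on all arrays of both groups, and Acan on all SKO+HDAC7 arrays. Tek was higher by 1.27, Krt14 by 1.07 and Cd68 by 0.57, and Eng, another endothelial marker, was at -0.16. Pou5f1 was higher by 0.21 (limma adjusted p = 0.017), at 12.01 to 12.08 on SKO+HDAC7 arrays and 11.70 to 11.92 on SKO+MEF2C arrays. The part of these markers in the Id and BMP differences was not tested.

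By day, the HDAC7 difference was called for 1 of the 10 genes at day 6 (Bmp2; 4.58% of all genes) and for 3 at day 10 (Bmp2, Smad7 and Id3; 7.27% of all genes). The MEF2C difference was called for 3 at day 6 (Id3, Smad6 and Bmp4; 3.1% of all genes) and for 5 at day 10 (Id3, Bmp2, Grem1, Bmp4 and Smad6; 7.01% of all genes). A change of the difference between the days was called for none of the 10, with either HDAC7 (0.125% of all genes) or MEF2C (0.0853% of all genes). At an unadjusted p under 0.05 by limma, 1 of the 10 (Smad7) passed with HDAC7 and 3 (Bmp2, Id2 and Smad7) with MEF2C. The nearest were Smad7 with HDAC7, at -0.50 (adjusted p = 0.099 by limma), and Bmp2 with MEF2C, at 0.57 (adjusted p = 0.21). With quantile normalization Smad7 was called, at -0.58 (adjusted p = 0.033).

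Several of these counts moved when 1 array was left out. For HDAC7 the day 6 count over all genes was 914, and it was 293 to 460 without any 1 of its 4 arrays. At day 10 it was 1450, and 793 and 785 without the first and the second SKO+HDAC7 array. For MEF2C the day 6 count was 618, and 157 to 268 without any 1 of its 4 arrays, and the day 10 count was 1397, and 691 and 716 without the first and the second SKO+MEF2C array. Bmp2 at day 6 and Bmp2 and Smad7 at day 10 were called with HDAC7 whichever array was left out. Id3 was also called at day 6 without the first SKO+Flag array (adjusted p = 0.046 by limma), and at day 10 it was not called without the first SKO+Flag array or either SKO+HDAC7 array (adjusted p = 0.080 to 0.17). Of the 3 MEF2C calls at day 6, none was kept without either SKO+MEF2C array, 1 (Smad6) without the first SKO+Flag array and 1 (Id3), with Id4 added, without the second. Of the 5 at day 10, Id3 was called whichever array was left out, and the count was 2 without the first SKO+Flag array, 3 without the second, 2 without the first SKO+MEF2C array and 1 without the second.

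The count of all genes whose difference changed between the days was 25 with HDAC7 and 483 without the second SKO+Flag array of day 10, 26 without the first, and 0 to 13 without any other 1 array. With MEF2C it was 17, and 213 without that second SKO+Flag array, 14 without the first and 2 to 7 without any other. None of the 10 genes was called in any of these fits.

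**Figure D2:**
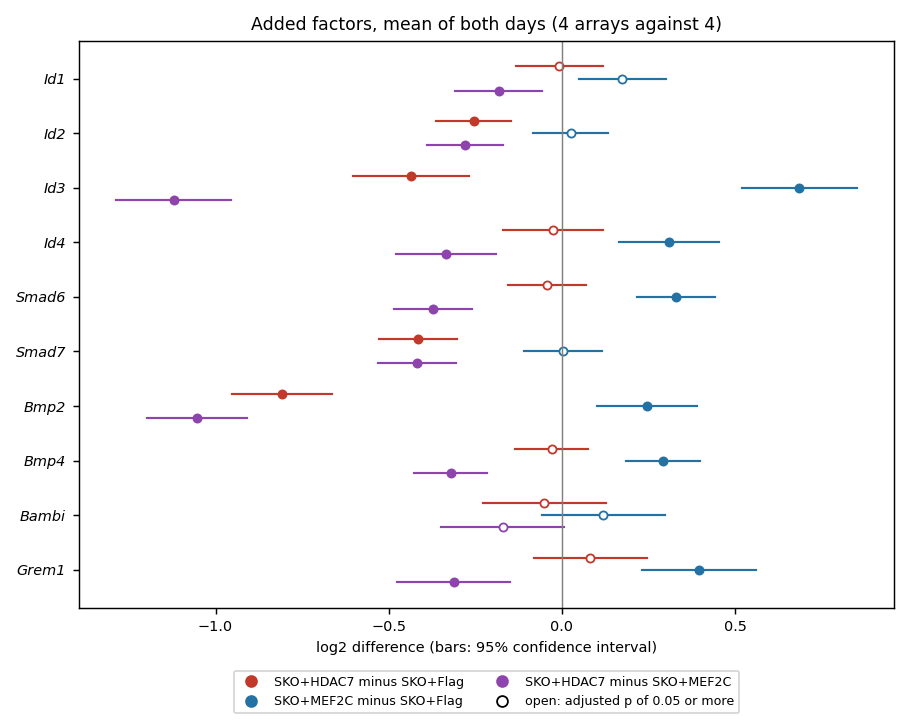
Log2 differences averaged over the days (horizontal axis, 4 arrays against 4) for each of the 10 genes, with 95% confidence intervals. Filled points passed the adjusted p threshold: SKO+HDAC7 minus SKO+Flag is called for 4 genes, all below 0, SKO+MEF2C minus SKO+Flag for 6, all above 0, and SKO+HDAC7 minus SKO+MEF2C for 9, all below 0.

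Bmp2, which encodes a ligand of the BMP receptors, had the widest range of group means of the 10 genes. It measured 5.34 and 5.28 at day 6 and 5.34 and 5.05 at day 10 on SKO+HDAC7 arrays. On SKO+MEF2C arrays it measured 6.05 and 6.05 at day 6 and 6.48 and 6.65 at day 10, and on SKO+Flag arrays 6.13 and 6.05 at day 6 and 6.01 and 6.06 at day 10. Every SKO+HDAC7 array was thus below every other SKO array, while SKO+MEF2C stood clear of SKO+Flag at day 10 and not at day 6. SKO+HDAC7 was lower than SKO+Flag by 0.81 ± 0.07 on the log2 scale (SE, 4 arrays each), that is 1.75-fold, with a limma adjusted p of 2.2e-05. With MEF2C the day 10 difference was 0.53 ± 0.09 (adjusted p = 0.0056) and the day 6 difference -0.04 ± 0.09 (adjusted p = 0.94). Averaged over the days the MEF2C difference was 0.25 (adjusted p = 0.037), with 2 of 4 arrays on its side of both SKO+Flag arrays. That call was lost in 9 of 16 alternative settings, with adjusted p up to 0.13. SKO+HDAC7 was lower than SKO+MEF2C by 1.05 ± 0.07, or 2.08-fold (adjusted p = 7e-07). Bmp2 lay below the array's median on all 4 SKO+HDAC7 arrays and both GFP arrays, and whether it was above background there is not known.

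Bmp4, whose product acts through the same receptors, did not follow Bmp2. It measured 6.77, 6.91, 6.81 and 6.71 on SKO+HDAC7 arrays (day 6, then day 10), 7.20, 7.16, 7.06 and 7.07 on SKO+MEF2C arrays, and 6.94, 6.84, 6.78 and 6.76 on SKO+Flag arrays. The SKO+HDAC7 and SKO+Flag arrays overlapped, and all 4 SKO+MEF2C arrays were above both. The HDAC7 difference was -0.03 (95% confidence interval -0.14 to 0.08), which does not reach the size seen in Bmp2. The MEF2C difference was 0.29 ± 0.05 (SE, 4 arrays each; limma adjusted p = 0.0027), and it was 0.29 at each day. SKO+HDAC7 was lower than SKO+MEF2C by 0.32 (adjusted p = 0.00057).

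Grem1, which encodes the antagonist that binds both of these ligands, rose with MEF2C. It measured 9.62 and 9.43 at day 6 and 9.17 and 9.13 at day 10 on SKO+MEF2C arrays, against 9.31 and 9.23 at day 6 and 8.44 and 8.79 at day 10 on SKO+Flag arrays. Within each day the SKO+MEF2C arrays were above the SKO+Flag arrays, although the day 6 SKO+Flag arrays exceeded the day 10 SKO+MEF2C arrays. The difference was 0.40 ± 0.07 (SE, 4 arrays each; adjusted p = 0.0059 by limma). With HDAC7 it measured 9.43, 9.33, 8.63 and 8.71, a difference of 0.08 from SKO+Flag (95% confidence interval -0.08 to 0.25). Between SKO+HDAC7 and SKO+MEF2C it differed by -0.31 (adjusted p = 0.011).

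Bambi, a receptor look-alike that lacks the kinase domain, passed none of the 3 comparisons of added factors averaged over the days. It measured 6.19, 6.43, 6.13 and 5.92 on SKO+HDAC7 arrays, 6.44, 6.44, 6.13 and 6.32 on SKO+MEF2C arrays, and 6.31, 6.36, 6.23 and 5.95 on SKO+Flag arrays. The 3 groups overlapped at day 10. The interval was -0.23 to 0.13 for HDAC7 and -0.06 to 0.30 for MEF2C, both against SKO+Flag, and -0.35 to 0.01 for SKO+HDAC7 against SKO+MEF2C.

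The inhibitory Smad genes split between the factors. Smad7 fell with HDAC7, and Smad6 rose with MEF2C. SKO+HDAC7 arrays gave Smad7 at 7.15 and 7.12 at day 6 and 6.59 and 6.67 at day 10, against 7.29 and 7.30 at day 6 and 7.26 and 7.34 at day 10 on SKO+Flag arrays. The lower level was thus plain at day 10 and slight at day 6. Averaged over the days, Smad7 was lower by 0.42 ± 0.05 (SE, 4 arrays each; limma adjusted p = 0.00039), with -0.67 at day 10 (adjusted p = 0.00027) and -0.16 at day 6 (adjusted p = 0.23). The SKO+MEF2C arrays gave 7.47, 7.38, 7.09 and 7.27. Averaged over the days the MEF2C difference was 0.00, with a 95% confidence interval of -0.11 to 0.11. It was 0.13 at day 6 and -0.12 at day 10, neither of them called. SKO+HDAC7 was lower than SKO+MEF2C by 0.42 (adjusted p = 0.00012).

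Smad6, in contrast, measured 7.19 and 7.08 at day 6 and 6.89 and 6.86 at day 10 on SKO+MEF2C arrays, against 6.83 and 6.69 at day 6 and 6.57 and 6.60 at day 10 on SKO+Flag arrays. All 4 SKO+MEF2C arrays lay above all 4 SKO+Flag arrays. The difference was 0.33 ± 0.05 (SE, 4 arrays each; limma adjusted p = 0.0019), or 1.26-fold. SKO+HDAC7 arrays gave 6.79, 6.68, 6.56 and 6.48, which overlapped the SKO+Flag arrays, and their difference was -0.04 (95% confidence interval -0.16 to 0.07). Against SKO+MEF2C it was -0.37 (adjusted p = 0.00029 by limma).

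Of the Id genes, Id3 was lower with HDAC7 and higher with MEF2C. SKO+HDAC7 arrays gave 7.23 and 7.34 at day 6 and 6.74 and 6.64 at day 10. SKO+MEF2C arrays gave 8.33 and 8.18 at day 6 and 7.87 and 8.04 at day 10, and SKO+Flag arrays 7.56 and 7.84 at day 6 and 7.24 and 7.05 at day 10. Within each day the order was SKO+MEF2C, SKO+Flag and SKO+HDAC7 with no overlap. Id3 was lower with HDAC7 than with Flag by 0.44 ± 0.08 (SE, 4 arrays each; limma adjusted p = 0.0038) and higher with MEF2C by 0.69 ± 0.08 (adjusted p = 0.0002), or 1.61-fold. Between SKO+HDAC7 and SKO+MEF2C the gap was -1.12 ± 0.08, or 2.17-fold (adjusted p = 1.4e-06).

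Id2, another inhibitor of basic helix-loop-helix factors, fell with HDAC7. It measured 8.48 and 8.50 at day 6 and 7.93 and 7.98 at day 10 on SKO+HDAC7 arrays, against 8.80 and 8.71 at day 6 and 8.21 and 8.18 at day 10 on SKO+Flag arrays. Both SKO+HDAC7 arrays of each day lay below both SKO+Flag arrays of that day. The difference was -0.26 ± 0.05 (SE, 4 arrays each; adjusted p = 0.0072 by limma). SKO+MEF2C arrays gave 8.74, 8.56, 8.32 and 8.38, a difference of 0.02 from SKO+Flag averaged over the days (95% confidence interval -0.08 to 0.13). That difference was -0.11 at day 6 and 0.16 at day 10, neither of them called. Against SKO+MEF2C the SKO+HDAC7 level differed by -0.28 (adjusted p = 0.0018).

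Id4, a further gene of the family, rose with MEF2C. It measured 8.33, 8.37, 8.10 and 8.19 on SKO+MEF2C arrays, against 7.86, 8.11, 7.94 and 7.84 on SKO+Flag arrays, and was higher in all 4 arrays of the same day. The difference was 0.31 ± 0.07 (SE, 4 arrays each; limma adjusted p = 0.011). Without the second SKO+MEF2C array of day 10 it was 0.28 (adjusted p = 0.051). SKO+HDAC7 arrays gave 7.97, 7.85, 7.83 and 8.01, overlapping SKO+Flag, and the difference was -0.02 (95% confidence interval -0.17 to 0.12). Against SKO+MEF2C it was -0.33 (adjusted p = 0.0035 by limma).

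Id1, the standard readout of BMP signalling in many cells, was not called in either comparison with SKO+Flag. SKO+HDAC7 arrays gave 8.53, 8.40, 8.28 and 8.38, SKO+MEF2C arrays 8.60, 8.61, 8.54 and 8.57, and SKO+Flag arrays 8.51, 8.40, 8.25 and 8.45. The HDAC7 difference from SKO+Flag was -0.01 (95% confidence interval -0.13 to 0.12), and the MEF2C difference was 0.17 (95% confidence interval 0.05 to 0.30, adjusted p = 0.084 by limma). SKO+HDAC7 was lower than SKO+MEF2C by 0.18 ± 0.06 (adjusted p = 0.042), a call that was lost in 9 of 17 alternative settings, with adjusted p up to 0.14.

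Between the days, Id2 was lower at day 10 in all 3 SKO groups, and Id3 and Grem1 were lower in SKO+HDAC7 and SKO+Flag. In SKO+HDAC7 cells 4 genes were lower at day 10 than at day 6, against 6.7% of all genes: Grem1 by 0.71 ± 0.11, Id3 by 0.59 ± 0.11, Id2 by 0.54 ± 0.07 and Smad7 by 0.50 ± 0.07 (SE, 2 arrays each; limma adjusted p = 0.0011, 0.0037, 0.00044 and 0.0009). In SKO+Flag cells 3 were lower, against 4.33% of all genes: Grem1 by 0.66, Id3 by 0.56 and Id2 by 0.56 (adjusted p = 0.0027, 0.0083 and 0.00058). SKO+MEF2C cells showed 1 gene lower (1.23% of all genes) and 1 higher (1.85% of all genes). The lower one was Id2, by 0.30 ± 0.07 (adjusted p = 0.049), and the higher one Bmp2, by 0.51 ± 0.09 (adjusted p = 0.012). Grem1 was at -0.38 there (adjusted p = 0.099) and Id3 at -0.30 (adjusted p = 0.21). On both day 10 arrays Grem1, Id2, Id3, Smad6 and Bambi were below both day 6 arrays in all 3 SKO groups. Smad6 and Bambi were called in none of these groups. The share of all genes that separate so between the days was not counted. The Id2 call in SKO+MEF2C was lost in 8 of 13 alternative settings (adjusted p up to 0.28), among them those without the first day 6 array (0.28), the first day 10 array (0.26) and the second day 10 array (0.16). The Bmp2 call there was lost in 3 of 12, without the first day 6 array (0.079), the second (0.091) and the second day 10 array (0.13). In SKO+Flag the Id3 call was lost without the second day 6 array (adjusted p = 0.076 by limma) and, with that of Grem1, in a fit to that group's days alone (0.093 and 0.068). The 4 calls in SKO+HDAC7 were kept in all 13.

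Fibroblast markers moved between the days too. In SKO+HDAC7 cells 2 of 12 were higher and 7 lower at day 10, with a median of -0.43, in SKO+MEF2C cells 1 was higher and 1 lower, with a median of 0.04, and in SKO+Flag cells 3 were higher and 5 lower, with a median of -0.23. Of 4 cartilage and bone markers, 3 were lower at day 10 in SKO+HDAC7 cells, 1 in SKO+MEF2C cells and 1 in SKO+Flag cells. Over all genes, 7.86% were called higher at day 10 in SKO+HDAC7 cells, 1.85% in SKO+MEF2C cells and 3.75% in SKO+Flag cells. In each of the 3 groups 1 endothelial and 1 keratinocyte marker were higher, and in SKO+HDAC7 cells 1 macrophage and blood marker was lower. The part of these markers in the day differences was not tested.

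GFP cells had 1 array at each day, and so no error to set against a difference. At day 10 and day 6, Id2 was at 8.08 and 7.65, Id3 at 8.22 and 7.76, Id4 at 7.78 and 7.05, Smad6 at 7.17 and 6.64, Bmp4 at 8.31 and 7.28, and Grem1 at 8.87 and 9.58. Bmp2 was at 5.0 and 4.74. Of these 7, 6 were higher at day 10, and Grem1 was lower. The other 3 moved less: the day 10 value minus the day 6 value was 0.05 for Bambi and 0.00 for Id1 and for Smad7.

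**Figure D3:**
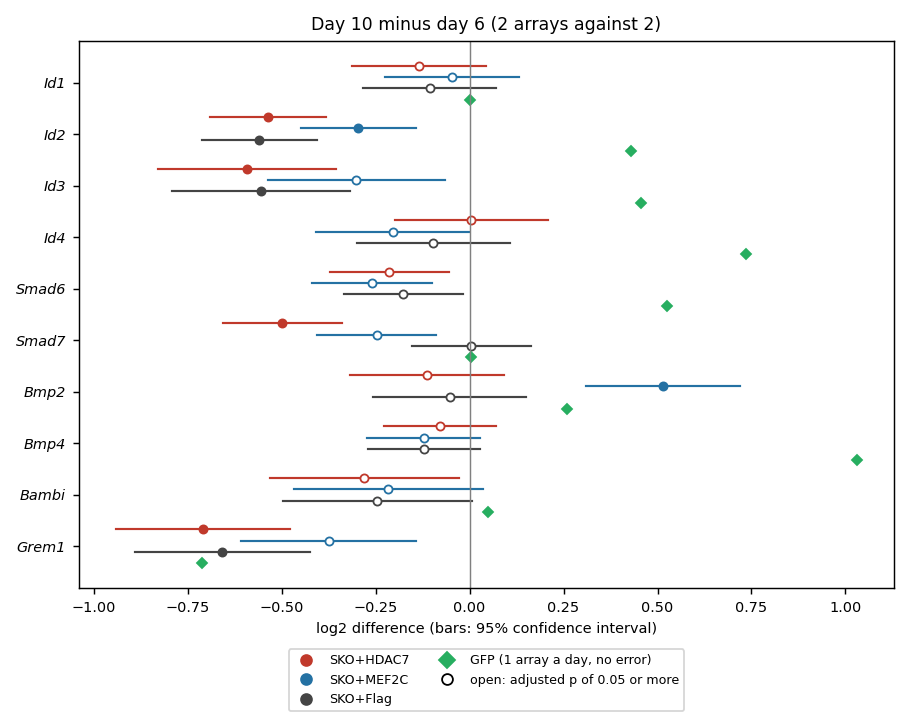
Day 10 minus day 6 on the log2 scale (horizontal axis) for each of the 10 genes, with 95% confidence intervals for the 3 SKO groups (2 arrays against 2) and a diamond without error for GFP (1 array against 1). Id2 lies below 0 in the 3 SKO groups and above 0 in GFP, Grem1 lies below 0 in all 4, and Bmp2 lies above 0 in SKO+MEF2C.

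Against GFP, the SKO+Flag cells differed in all 10 genes averaged over the days, 5 higher and 5 lower. Over all genes 17.5% were called higher and 18.2% lower. The higher genes were Id1, Bmp2, Id2, Id4 and Smad7, and the lower ones Bmp4, Id3, Bambi, Grem1 and Smad6, with a median of 0.02 against -0.04 for all genes. Fibroblast markers moved with the vector: 10 of 12 were lower and none higher in SKO+Flag, with a mean of 9.31 to 9.47 on SKO+Flag arrays and 10.4 to 11.0 on GFP arrays. Of the markers of other cells, Tek was higher by 2.78, Krt14 by 0.59, Cd68 by 0.55 and Col2a1 by 0.34, and Sox9, a cartilage marker, was at -0.87. The part of these markers in the 10 differences was not tested, and each day rests on 1 GFP array.

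Id1 and Bmp2 had the largest positive differences of the 10. Id1 measured 8.51, 8.40, 8.25 and 8.45 on SKO+Flag arrays, against 7.19 and 7.19 on GFP arrays, a difference of 1.21 ± 0.07 (SE, 4 arrays against 2; limma adjusted p = 1.2e-07), or 2.32-fold. Bmp2 measured 6.01 to 6.13 on SKO+Flag arrays, against 4.74 and 5.0 on GFP arrays, a difference of 1.19 ± 0.08 (adjusted p = 4.4e-07). On the GFP side Bmp2 was below the array's median, so the fold of 2.28 is given as measured. Neither gene overlapped between the vectors. Both were called at each day, Id1 with 1.27 at day 6 and 1.16 at day 10 and Bmp2 with 1.35 and 1.03.

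Bmp4, Id3 and Bambi were lower with SKO+Flag. Bmp4 measured 6.94, 6.84, 6.78 and 6.76 on SKO+Flag arrays, against 7.28 at day 6 and 8.31 at day 10 on GFP arrays, a difference of -0.97 ± 0.06 (adjusted p = 1.9e-07 by limma). The gap was -0.39 at day 6 and -1.54 at day 10. Bambi measured 6.31, 6.36, 6.23 and 5.95 on SKO+Flag arrays, against 6.75 and 6.80 on GFP arrays, and was lower by 0.56 ± 0.10 with no overlap (adjusted p = 0.00096). Without the GFP array of day 10 only the day 6 comparison remains, and there the Bambi difference was -0.41. Id3 measured 7.56 and 7.84 at day 6 and 7.24 and 7.05 at day 10 on SKO+Flag arrays, against 7.76 and 8.22 on GFP arrays at the same days, so that 3 of 4 arrays were lower. Its difference of -0.57 ± 0.09 (adjusted p = 0.00055 by limma) was -0.06 at day 6 alone, which is all that remains without the GFP array of day 10.

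By day, 5 of the 10 genes were called at day 6 (24.1% of all genes) and 7 at day 10 (26.9%). A change of the difference between the days was called for 5 of the 10, against 5.06% of all genes, and in all 5 the SKO+Flag level relative to GFP was lower at day 10. Bmp4 is 1 of these 5, with Id2, Id3, Id4 and Smad6. In a fit to the compared groups alone 2 of the 5 were called, and Id3, Id4 and Smad6 were not (adjusted p = 0.12, 0.13 and 0.11 by limma). Id2 was higher in SKO+Flag than in GFP by 1.11 at day 6 (8.80 and 8.71 against 7.65) and by 0.12 at day 10 (8.21 and 8.18 against 8.08). Id4 was higher by 0.94 at day 6 and 0.11 at day 10. Averaged over the days, Id2 differed by 0.61 (adjusted p = 1.1e-05 by limma) and Id4 by 0.52 (adjusted p = 0.00034). Without the GFP array of day 6 only the day 10 differences of 0.12 and 0.11 remain. For Smad6 the differences were 0.12 at day 6 and -0.58 at day 10, and without the GFP array of day 10 only the former remains. Averaged over both days Smad6 was at -0.23 (adjusted p = 0.012 by limma). Smad7 measured 7.26 to 7.34 on SKO+Flag arrays, against 7.03 and 7.03 on GFP arrays. Its difference was 0.27 averaged over the days (adjusted p = 0.0061 by limma) and 0.26 at day 6 alone. Grem1 differed by -0.28 (adjusted p = 0.031) and was not called in 5 of 15 alternative settings, with adjusted p up to 0.18.

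**Figure D4:**
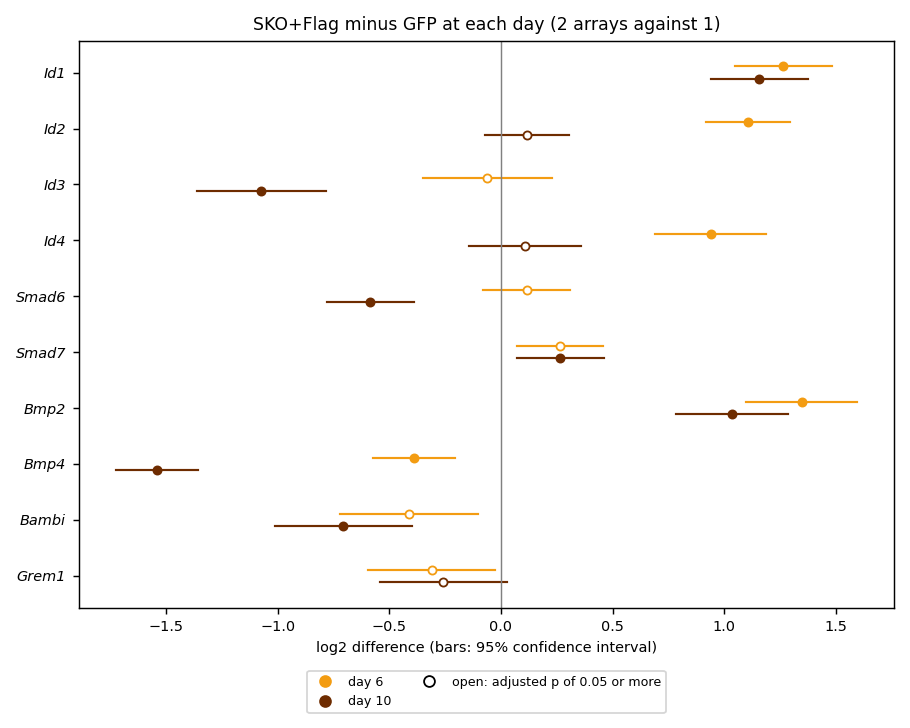
SKO+Flag minus GFP on the log2 scale (horizontal axis) at day 6 and at day 10 for each of the 10 genes, 2 arrays against 1, with 95% confidence intervals from the spread shared over all groups. Id1 and Bmp2 lie above 0 at both days, and Bmp4 is further below 0 at day 10 (-1.54) than at day 6 (-0.39).

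Around these 10 genes, 79 of 82 other listed genes of the pathway were measured. With HDAC7 6 of the 79 were higher and 10 lower than in SKO+Flag, with MEF2C 13 were higher and 7 lower, and in SKO+HDAC7 against SKO+MEF2C 10 were higher and 24 lower. In SKO+Flag against GFP 19 were higher and 16 lower. The all-gene shares given above apply.

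Among 13 other ligands, Bmp6 was higher with HDAC7 than with Flag alone by 0.46 and Bmp7 by 0.23, and none was lower. With MEF2C Bmp3 was higher by 0.27, and no other was called. Bmp3 lay below the array's median on 3 of 4 SKO+Flag arrays. Bmp6 and Bmp7 thus differed with HDAC7 in the direction opposite to Bmp2, though Bmp7 lay below the array's median on all SKO arrays. Of 13 receptors and co-receptors, Bmpr2, the main type II BMP receptor, and Acvr1, a type I receptor, were lower with HDAC7, by 0.42 and 0.16, and none was higher. With MEF2C Neo1 was higher by 0.22, and Acvrl1 and Acvr1 were lower, at -0.27 and -0.17. In SKO+HDAC7 against SKO+MEF2C, 2 were higher and 4 lower, and Bmpr2 was the lowest of them, at -0.58 ± 0.10 (limma adjusted p = 0.0011).

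Of 16 Smads and Smad modulators, Peli1, Skil and Tob1 were lower with HDAC7 (-0.55, -0.30 and -0.24) and none was higher. With MEF2C Peli1 and Skil were higher, by 0.62 and 0.23. Peli1 encodes an E3 ubiquitin ligase, and Skil encodes SnoN, a corepressor that binds Smads. In SKO+HDAC7 against SKO+MEF2C, Peli1 was at -1.16 ± 0.07 and Skil at -0.53 ± 0.05 (adjusted p = 5.7e-07 and 3.4e-05 by limma), with 6 genes of the list lower and 1 higher. The median of the list was -0.06.

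Of 17 extracellular antagonists and modulators other than Grem1, 6 were higher with MEF2C and 2 lower. Tll1, a tolloid-like protease, was higher by 1.13 ± 0.06, Bmper by 0.46 and Twsg1 by 0.31, and Sostdc1, a BMP antagonist, was lower by 0.74 (limma adjusted p = 1.1e-06, 3.4e-05, 0.0041 and 6.7e-06). With HDAC7 Fst and Sostdc1 were higher, by 0.34 and 0.26, and Crim1 and Twsg1 were 2 of 3 lower ones, at -0.41 and -0.28. Sostdc1 was higher in SKO+Flag than in GFP by 3.85 and lay below the array's median on the GFP side. Bmper lay below the array's median on 3 of 4 SKO+Flag arrays.

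Of 20 other genes known to be induced by BMP, 2 were higher and 2 lower with HDAC7. Hes1 was lower by 0.64 ± 0.05 and Snai2 by 0.21, while Gata3 was higher by 0.57 and Alpl by 0.36; Gata3 lay below the array's median on all SKO+Flag arrays. With MEF2C 3 were higher and 3 lower. Alpl (-0.58) and Tbx2 (-0.34) were among the lower ones. Atoh8 (0.34) and Sp7 (0.26, below the array's median throughout) were among the higher ones, the direction of Id3. Alpl, alkaline phosphatase, thus ran opposite to Id3 with both factors. In SKO+HDAC7 against SKO+MEF2C, Alpl was at 0.94 and Hes1 at -0.66 (limma adjusted p = 2.6e-07 and 2e-06), with 3 of 20 higher and 5 lower.

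The 19 measured factors that Id proteins bind or that share those complexes (basic helix-loop-helix factors and a few Ets and Pax factors) had 1 higher and 2 lower with HDAC7 and 3 higher and 2 lower with MEF2C. Tcf4, an E protein and direct Id partner, was at -0.34 with HDAC7 and 0.35 with MEF2C, and at -0.70 ± 0.09 between them (limma adjusted p = 0.00015). Twist1 and Twist2 were lower in SKO+HDAC7 than in SKO+MEF2C, at -0.32 and -0.42. In SKO+Flag against GFP 11 of the 19 were lower, among them Twist2 at -1.11 and Twist1 at -0.59, and 1, Msc, which encodes the repressor musculin, was higher, by 1.60, with GFP below the array's median.

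In SKO+Flag against GFP the Smad modulators had 6 of 16 genes higher and 1 lower, among the higher ones Peli1 (1.55), Usp9x (1.42), Skil (1.23) and Smurf1 (0.88). Usp9x encodes a deubiquitinase of Smad4, and Smurf1 an E3 ubiquitin ligase for BMP Smads and receptors. Of the receptors, 4 of 13 were higher and 5 lower, and the co-receptor gene Tgfbr3 was at -2.34 ± 0.08 (limma adjusted p = 2.4e-09). Bmp6 was higher by 0.68, the same direction as Bmp2 and opposite to Bmp4. Snai2, a mesenchymal repressor that BMP can induce, was at -1.64, with the fibroblast markers lower too.

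**Figure D5:**
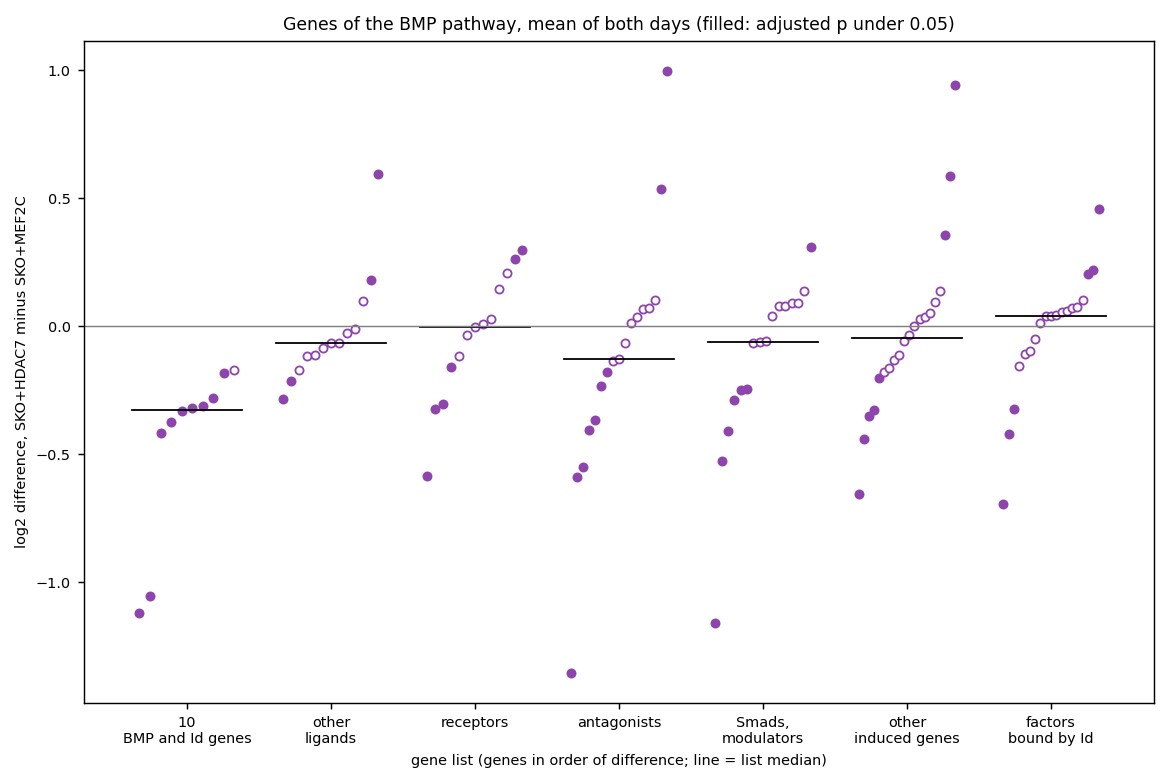
SKO+HDAC7 minus SKO+MEF2C on the log2 scale (vertical axis, mean of both days) for each measured gene of the 10 BMP and Id genes and of 6 lists of other pathway genes, filled where called, with a line at each list's median. The 10 genes have a median of -0.33, and the other lists have medians of -0.13 to 0.04.

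Over the 8 group means, Bmp2 spanned the widest range of the 10 genes (1.82), then Id3 (1.57) and Bmp4 (1.55), and Smad6 the narrowest (0.65). Among 2041 genes whose group means spanned at least 1, the profile most like Id3 over the 14 arrays was that of St3gal1 (Pearson r = 0.985, and 0.989 over the 12 SKO arrays), followed by C1qtnf3 and Hacd1. For Bmp2 the closest were Mctp1, Tgm2 and Btbd3, at 0.970 to 0.959, and for Bmp4 Galnt13, Igfbp2 and Nell2, at 0.983 to 0.969. Over the 12 SKO arrays alone, Igfbp2 correlated with Bmp4 at 0.774. Arrays of a group share their condition, so these values describe likeness and carry no p.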

How the data were processed

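Per the labels' protocols, 14 Affymetrix whole-transcript arrays were hybridised with biotin-labelled cDNA from 100 ng of total RNA, 1 sample to an array. The authors deposited log2 values for each probe set, made with RMA and Partek per the submitters' processing notes. The genome build and tool versions are not given in the sources used here. A description repeated on all arrays names another kind of sample and was not used. Of 28815 probe sets, 21780 had 1 gene symbol in the platform annotation, 1605 several and 5430 none here; 21689 matched RefSeq (GRCm38.p6) by Entrez ID. Genes with more than 1 probe set (998) kept the one with the highest mean, which left 19935 genes. Array medians were 5.68 to 5.76 over all probe sets and 5.91 to 5.98 over these genes. Precision is limited by how few arrays there are.

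A group-means model over all 14 arrays in 8 groups was fitted with limma 3.58.1 in R 4.3.3 (lmFit, eBayes), with 6 residual and 4.71 prior degrees of freedom, Benjamini-Hochberg adjusted over all genes and called under 0.05. GFP groups of 1 array borrow the spread of the others. The fit was tested on simulated data. The 10 genes were named throughout, with up to 4 called genes of each other list by size of change, and the 3 most alike genes for the 3 genes of widest range. The genes and lists were chosen with earlier results of these data known. Alternatives were a robust prior, array weights, compared groups alone, quantile normalization and median centring. Others were genes above the median level, the mean over probe sets, a replicate block and leaving out each array. Each of the 10 genes has 1 probe set, so the mean over probe sets leaves its values unchanged.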

Additional observations from a re-analysis of the deposited data

Results flagged for a closer look

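For 5 of the 10 genes the difference between SKO+Flag and GFP was itself different at the 2 days. Written as the log2 difference at day 10 minus that at day 6, it was -1.15 for Bmp4 (limma adjusted p = 0.00024), -0.99 for Id2 (adjusted p = 0.0008), -1.01 for Id3 (adjusted p = 0.0094), -0.83 for Id4 (adjusted p = 0.012) and -0.70 for Smad6 (adjusted p = 0.0079). Each was negative, and each rests on 1 GFP array at each day, whose own spread was not measured.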

How the results depend on the processing

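Each comparison was recomputed under 11 to 17 alternatives. Among the values for single genes, 2123 kept their side of the threshold, 91 lost the call, 29 gained one and 1 reversed. The 2123 include values that were called in neither fit. A change of sign was counted only where the main or the alternative fit was called. The reversal was Smad6 in SKO+Flag against GFP, at 0.12 without the GFP array of day 10. Leaving out a GFP array leaves only the other day, so that fit repeats the comparison at that day. The 4 HDAC7 calls against SKO+Flag averaged over the days were kept in every alternative in which the gene was measured (Bmp2 drops out among genes above the median level). Without the GFP array of day 10, 5 of the 10 genes were called in SKO+Flag against GFP in place of 10 (Id3, Smad6, Smad7, Bambi and Grem1 were lost). Without that of day 6, 7 were called (Id2, Id4 and Grem1 were lost). Over the arrays left out 1 at a time, that count ranged from 5 to 10. In SKO+Flag, day 10 against day 6, 1 gene was called in place of 3 in a fit to the compared groups alone, where the adjusted p by limma was 0.093 for Id3 and 0.068 for Grem1. Without the second SKO+Flag array of day 6 it was 0.076 for Id3. In SKO+MEF2C, day 10 against day 6, 2 genes were called, against 4 with array weights, 1 with quantile normalization, 1 with median centring and 0 to 1 with each array left out. Over all genes that comparison called 614, against 994 with array weights and 250 to 317 without 1 array. SKO+Flag called 1610 between the days, against 504 in a fit to the compared groups alone and 944 without the second day 6 array, and SKO+HDAC7 called 2902, against 1666 without the first day 6 array and 1571 without the second day 10 array. By day, the HDAC7 count at day 6 was 2 in place of 1 with the robust prior and median centring, where Id3 was added. It was also 2 among genes above the median level, where Bmp2 drops out and Id2 and Id3 were called. With each array left out it was 1 to 2. The MEF2C count at day 6 was 0 in place of 3 in a fit to the compared groups alone and 0 to 2 with each array left out, and at day 10 it was 2 in place of 5 in that fit, 3 with median centring and 1 to 3 with each array left out. A change of the HDAC7 difference between the days was called for 1 gene in place of 0 with quantile normalization, and that of SKO+Flag against GFP for 2 in place of 5 in a fit to the compared groups alone. In that fit the all-gene counts were 375 for HDAC7 at day 6 and 501 at day 10, 351 for MEF2C at day 6 and 502 at day 10, 2 and 1 for the change between the days, and for SKO+Flag against GFP 3012 at day 10 in place of 5359 and 206 for the change in place of 1008. The count for the change was 66 for HDAC7 and 44 for MEF2C with the robust prior, 69 and 45 among genes above the median level, 63 for HDAC7 with quantile normalization and 16 with array weights, and 15 for HDAC7 and 11 for MEF2C with the replicate block within day. Over 15 pairs of groups the correlation of deviations between arrays of the same experiment number ran from -0.24 to 0.18, and 4 exceeded 0.1. Between groups of the same day it was 0.18, 0.01 and -0.09 at day 6 and 0.15, 0.15 and 0.05 at day 10. Whether the experiment number pairs the arrays cannot be told from correlations this weak. With the number as a replicate block, SKO+MEF2C between the days gave 1 call, for both days together and within each day. SKO+HDAC7 against SKO+MEF2C gave 8 in place of 9 for both days together, SKO+MEF2C against SKO+Flag 5 in place of 6 within each day, and SKO+HDAC7 between the days 5 in place of 4. The causes of these changes were not tested.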
